A study of Mus musculus with 12 samples.

Results

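Absorption of dietary sugar was followed through 9 genes in small and large intestinal epithelial cells (S-IECs and L-IECs) with and without deletion of *Nfat5*. They were 4 genes of sugar transporters (*Slc2a5*, *Slc2a2*, *Slc5a1* and *Slc2a1*), 3 of enzymes that handle fructose and glucose phosphates (*Khk*, *G6pc* and *Fbp1*), and *Mlxipl* and *Txnip*, a sugar-sensing transcription factor gene and one of its targets. They were taken from the value table by gene symbol, with the brightest transcript cluster over the 12 arrays where a symbol had several, and all 9 were found among 25341 clusters with a symbol, of 41345 in the table. A transcript cluster is a set of probes summarised to 1 value. A gene can have several clusters, and a cluster can carry several symbols or none. S-IECs came from the ileum and L-IECs from the colon of untreated mice aged 11 weeks, released with EDTA, and 3 arrays stood in each of 4 groups. *Nfat5IEC-KO* mice carried *Nfat5fl/fl* alleles and *Vil-Cre*, a Cre recombinase under the villin promoter that acts in intestinal epithelium, and *Nfat5fl/fl* mice carried the same floxed alleles without Cre. By the study's methods all mice were male and on a C57BL/6J background.

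In the small intestine, glucose and galactose enter enterocytes across the brush border through SGLT1 (*Slc5a1*), which couples them to sodium, and fructose enters through GLUT5 (*Slc2a5*). GLUT2 (*Slc2a2*) passes all 3 sugars across the basolateral membrane, and GLUT1 (*Slc2a1*) is a glucose uniporter of many proliferating and glycolytic cells. Within the cell ketohexokinase (*Khk*) phosphorylates fructose as the first step of fructolysis, and fructose bisphosphatase (*Fbp1*) and the catalytic subunit of glucose-6-phosphatase (*G6pc*) can return carbon to free glucose. ChREBP (*Mlxipl*) is a transcription factor that is active when sugar phosphates are plentiful. *Txnip*, which encodes an arrestin-family protein that promotes removal of GLUT1 from the cell surface, is among its established targets.

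Values were log2 summaries per cluster, and the arrays had medians of 4.48 to 4.57 over all clusters and within-group Pearson r of 0.988 to 0.992 across clusters with a symbol. *Nfat5* itself had log2 values of 8.03, 8.03 and 8.17 in *Nfat5fl/fl* S-IECs and 8.09, 7.84 and 8.01 in those labelled *Nfat5IEC-KO*, so the S-IEC groups overlapped. In L-IECs its values were 7.49, 7.45 and 7.54 in *Nfat5fl/fl* and 6.92, 6.90 and 7.0 in *Nfat5IEC-KO*, where all 3 arrays were lower. The targeted gene thus did not separate the S-IEC genotypes, which are named by their labels, and the sources used here do not tell which exons its probes cover. For this knockout line the paper itself reports lower *Nfat5* mRNA in epithelial cells and less NFAT5 protein in the intestinal epithelium. Genotypes were compared within a tissue (*Nfat5IEC-KO* minus *Nfat5fl/fl*) and tissues within a genotype (S-IECs minus L-IECs) with limma over all 25341 clusters, and a gene was called at an adjusted p under 0.05 after Benjamini-Hochberg adjustment. Each group entered several comparisons, which are therefore not independent. The labels number the mice within a group but do not say whether the same mouse gave both tissues. P-values weigh a difference against the spread between samples of a group, which limma moderates over all clusters. In bulk arrays, fewer cells of a type and less RNA per cell cannot be told apart.

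*Slc2a5* (cluster 17421875, chr4:150119344-150144168 of GRCm38.p6) had log2 values of 7.20, 7.42 and 7.26 in *Nfat5fl/fl* S-IECs and 8.30, 8.12 and 7.97 in *Nfat5IEC-KO* S-IECs. Its values in L-IECs were 5.07, 5.13 and 5.56 in *Nfat5fl/fl* and 5.58, 5.31 and 5.53 in *Nfat5IEC-KO*. Every S-IEC array was above every L-IEC array, and within S-IECs every *Nfat5IEC-KO* array was above every *Nfat5fl/fl* array, while the L-IEC genotypes overlapped. *Slc2a2* (17396479, chr3:28697903-28728361), the basolateral transporter, had 8.79, 8.61 and 7.99 in *Nfat5fl/fl* S-IECs, 9.29, 9.63 and 8.61 in *Nfat5IEC-KO* S-IECs, and between 4.18 and 4.59 in the L-IEC arrays. Replicate 3 was the lowest array of both S-IEC groups, and in *Nfat5IEC-KO* it lay at the level of *Nfat5fl/fl* replicate 2. *Slc5a1* (17436407, chr5:33104219-33162699), the sodium-coupled transporter, had 11.06, 10.89 and 10.78 in *Nfat5fl/fl* S-IECs and 11.01, 11.17 and 10.87 in *Nfat5IEC-KO* S-IECs, against 8.16 to 8.64 in L-IECs. The genotypes overlapped in both tissues.

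*Slc2a1* (17417844, chr4:119108745-119137330) had the opposite tissue order. Its log2 values were 6.06, 6.52 and 6.34 in *Nfat5fl/fl* S-IECs and 5.36, 6.14 and 5.70 in *Nfat5IEC-KO* S-IECs, against 9.16, 9.26 and 9.31 in *Nfat5fl/fl* L-IECs and 9.27, 9.07 and 9.20 in *Nfat5IEC-KO* L-IECs. The second *Nfat5IEC-KO* S-IEC array overlapped the *Nfat5fl/fl* range and the other two lay below it. A dimmer cluster of the same gene (17429307) had group means of 4.82 and 4.93 in *Nfat5fl/fl* and *Nfat5IEC-KO* S-IECs and of 5.53 and 5.36 in L-IECs.

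**Figure D1:**
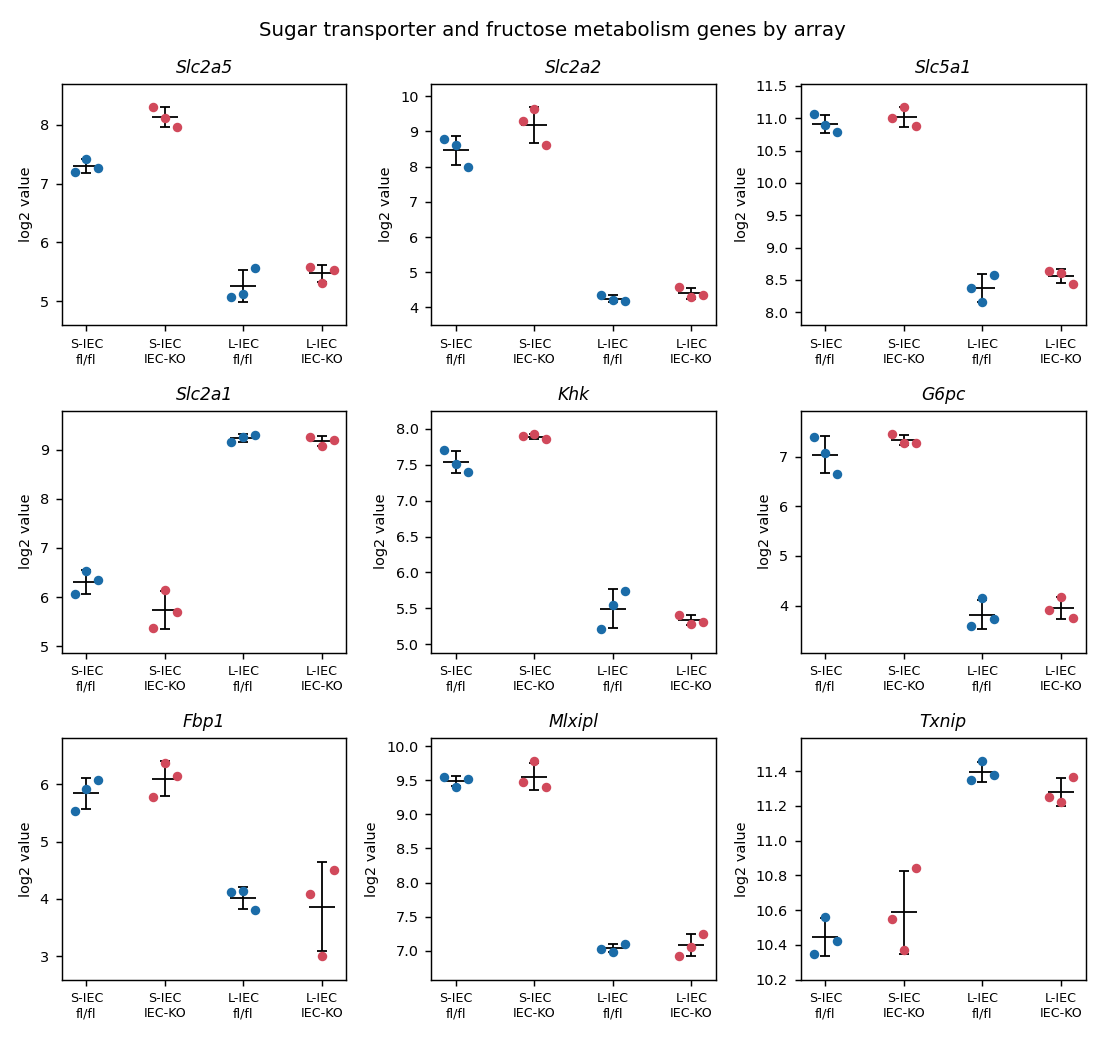
Log2 value (y axis) of each of the 9 genes on each array, by tissue and genotype (x axis), where points are single arrays and the line and bars give the mean and SD of 3 arrays. *Slc2a1* and *Txnip* lay higher in L-IECs and the other 7 genes in S-IECs, and the S-IEC genotypes separated without overlap for *Slc2a5* and *Khk*.

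*Khk* (17435934, chr5:30921436-30931248), the enzyme gene of the first step of fructose use, had log2 values of 7.71, 7.51 and 7.40 in *Nfat5fl/fl* S-IECs and 7.90, 7.92 and 7.86 in *Nfat5IEC-KO* S-IECs. Its L-IEC values were 5.21, 5.54 and 5.74 in *Nfat5fl/fl* and 5.41, 5.28 and 5.31 in *Nfat5IEC-KO*. All 3 *Nfat5IEC-KO* S-IEC arrays lay above the *Nfat5fl/fl* arrays and close together (SD 0.03), and the L-IEC genotypes overlapped. *G6pc* (17256707, chr11:101367716-101377903) had 7.39, 7.06 and 6.65 in *Nfat5fl/fl* S-IECs and 7.45, 7.28 and 7.27 in *Nfat5IEC-KO* S-IECs, against 3.59 to 4.18 over the L-IEC arrays. *Fbp1* (17293557, chr13:62864753-62888298) had 5.54, 5.92 and 6.07 in *Nfat5fl/fl* S-IECs and 5.78, 6.37 and 6.14 in *Nfat5IEC-KO* S-IECs, and 4.12, 4.14 and 3.80 in *Nfat5fl/fl* L-IECs. In *Nfat5IEC-KO* L-IECs *Fbp1* had 4.08, 3.0 and 4.51, so that the second of these arrays was the lowest of the 12. *G6pc* and *Fbp1* lay below the median of the array on all 3 arrays of both L-IEC groups, and *Slc2a2* on all 3 *Nfat5fl/fl* and 2 *Nfat5IEC-KO* L-IEC arrays. The table holds no detection call, so whether the colon expressed these 3 genes was not determined, and their differences between the tissues are read as lower bounds.

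*Mlxipl* (17443185, chr5:135089890-135139768) had log2 values of 9.55, 9.40 and 9.52 in *Nfat5fl/fl* S-IECs and 9.48, 9.78 and 9.40 in *Nfat5IEC-KO* S-IECs, with L-IEC values from 6.93 to 7.25 over both genotypes. *Txnip* (17400599, chr3:96557957-96561857) had 10.35, 10.56 and 10.42 in *Nfat5fl/fl* S-IECs and 10.55, 10.37 and 10.84 in *Nfat5IEC-KO* S-IECs. In L-IECs it had 11.35, 11.46 and 11.38 in *Nfat5fl/fl* and 11.25, 11.22 and 11.37 in *Nfat5IEC-KO*. The ChREBP gene was thus higher in the ileum and its target *Txnip* higher in the colon, and in both tissues the genotypes of both genes overlapped. A second, dimmer cluster (17408067) carried the symbols of *Txnip* and the antisense gene *Gm15441* together and had the same tissue order.

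The promoters of 3 of these genes are shown because they differ in the letters that ChREBP is known to bind. Each runs from 250 bases before to 50 after a start annotated for the gene. The sequences were read from RefSeq's annotation of GRCm38.p6 on the plus strand, which is the strand of all 3 genes. For *Txnip* and *Slc2a5* that start is the first base of the gene coordinates given above, and for *Khk* it lies inside them. Capitals mark CACGNG in *Txnip*, where the complement CNCGTG or TTTCCA in capitals marks CACGNG or TGGAAA read on the other strand, and CACGTG in *Khk*. *Slc2a5*, whose S-IEC genotypes differed most among the 9 genes when all arrays were used, holds none of them.
Txnip (chr3:96557707-96558006): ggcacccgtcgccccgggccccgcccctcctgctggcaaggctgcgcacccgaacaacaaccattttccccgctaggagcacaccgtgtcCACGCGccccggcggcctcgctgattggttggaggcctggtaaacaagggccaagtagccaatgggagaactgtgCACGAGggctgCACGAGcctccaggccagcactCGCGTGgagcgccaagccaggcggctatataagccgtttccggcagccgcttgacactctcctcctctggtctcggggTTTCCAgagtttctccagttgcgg
Khk (chr5:30921309-30921608): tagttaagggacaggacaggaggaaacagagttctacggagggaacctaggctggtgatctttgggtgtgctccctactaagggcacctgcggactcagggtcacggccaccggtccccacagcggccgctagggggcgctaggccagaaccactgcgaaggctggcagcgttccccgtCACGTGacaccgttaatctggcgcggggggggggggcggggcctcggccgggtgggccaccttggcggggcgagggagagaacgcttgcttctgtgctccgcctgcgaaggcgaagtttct
Slc2a5 (chr4:150119094-150119393): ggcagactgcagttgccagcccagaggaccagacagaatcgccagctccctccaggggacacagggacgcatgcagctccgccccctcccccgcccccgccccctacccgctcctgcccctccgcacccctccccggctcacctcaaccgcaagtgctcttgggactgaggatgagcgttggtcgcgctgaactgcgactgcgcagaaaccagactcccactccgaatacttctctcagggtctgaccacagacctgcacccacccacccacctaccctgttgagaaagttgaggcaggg

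ChREBP and its partner bind as a pair of motifs related to CACGTG with 5 bases between them. Over both strands, CACGTG was in 7.15% of 32851 promoters of this length. By the same search, 2 copies of CACGNG in the same orientation stood at that spacing in 0.0487% (16 promoters). *Txnip* was one of these 16, with the pair from base -85 to base -69 relative to the start. Pairs with the copies in opposite orientation were not searched for. CACGTG lay at -71 to -66 in *Khk*, a stretch inside the gene coordinates given above. It also lay at -143 to -138 in *Slc5a1* and at -98 to -93 in the more upstream of the 2 promoters of *Mlxipl*. *Slc2a5*, *Slc2a2*, *Slc2a1* and *Fbp1* held no CACGNG in this window, which 27.5% of all promoters do, and *G6pc* held 1, after the start. TGGAAA, the core of the site that NFAT5 binds, was in 21.4% of promoters and among the 9 genes only in *Txnip*, at bases 27 to 32. A match of such short letters is a description and neither a site nor a cause, and the absence of one refers to this window alone.

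All 9 genes differed between the tissues in both genotypes. In *Nfat5fl/fl* mice 7 were higher in S-IECs, where limma called 7.20% of all clusters higher, and 2 were lower, where it called 10.4% lower. The median of the measured log2 differences of the 9 genes was 2.04, against 0.00 over all clusters tested. Among the genes above the array median in both tissues, *Slc5a1* differed by 2.54 (standard error 0.14), *Mlxipl* by 2.45 (standard error 0.10), and *Khk* and *Slc2a5* by 2.04 each (standard error 0.15 for both). The genes of apical sugar uptake were thus 4.11-fold (*Slc2a5*) and 5.80-fold (*Slc5a1*) higher in S-IECs. Against L-IEC levels below the array median, the measured differences were 4.22 for *Slc2a2* (standard error 0.19, adjusted p = 9.48e-07), 3.22 for *G6pc* (standard error 0.21, adjusted p = 7.29e-06) and 1.82 for *Fbp1* (standard error 0.16). As lower bounds these 3 have no order among themselves or with the others. *Slc2a1* was 7.65-fold lower there (-2.93, standard error 0.14, adjusted p = 1.06e-06) and *Txnip* 1.93-fold lower (-0.95, standard error 0.11, adjusted p = 0.000270, from limma). The mean of both *Slc2a1* clusters gave -1.82, since the dimmer one differed by -0.71.

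In *Nfat5IEC-KO* mice the same 7 genes were higher and the same 2 lower in S-IECs, where limma called 10.0% of clusters higher and 14.7% lower. The log2 differences were 2.65 for *Slc2a5*, 2.56 for *Khk*, 2.47 for *Mlxipl* and 2.45 for *Slc5a1*. The measured values for *Slc2a2* (4.77), *G6pc* (3.39) and *Fbp1* (2.24) were again lower bounds. The differences were -0.69 for *Txnip* and -3.45 for *Slc2a1*, with adjusted p from 2.93e-07 (*G6pc*) to 0.00588 (*Txnip*). The fold difference of *Slc2a5* between the tissues was 6.30 here and 4.11 in *Nfat5fl/fl* mice, and that of *Slc2a1* 10.9 and 7.65. By the methods' t-test the differences of *Fbp1* and *Txnip* had adjusted p of 0.0540 and 0.0507.

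**Figure D2:**
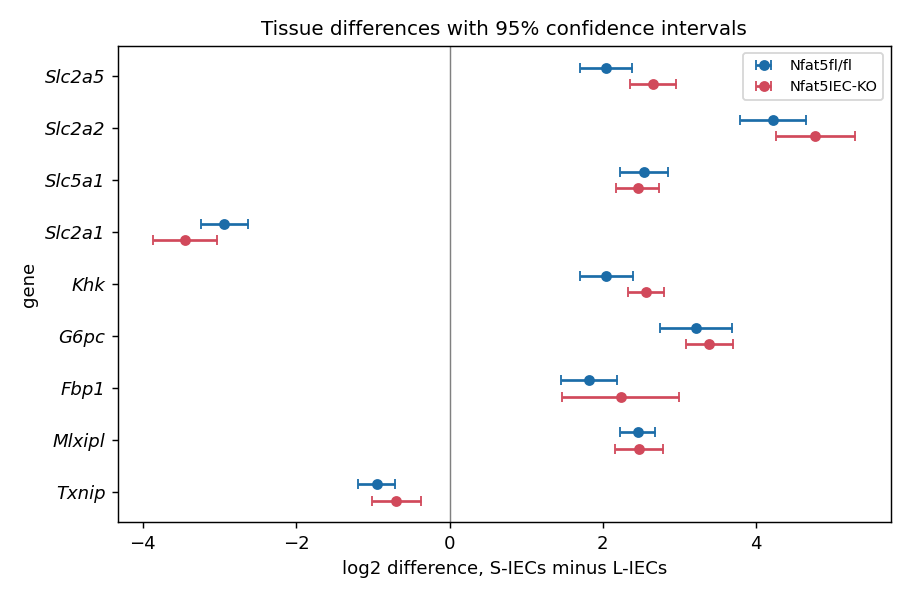
Log2 difference between S-IECs and L-IECs (x axis) of each gene (y axis) in *Nfat5fl/fl* and *Nfat5IEC-KO* mice, with 95% confidence intervals from limma. No interval reaches 0, and *Slc2a1* (-2.93 and -3.45) and *Txnip* lie to the left of it. The points of *Slc2a2*, *G6pc* and *Fbp1* are lower bounds, since these genes lay below the array median on 2 or 3 of the 3 L-IEC arrays of each genotype.

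The genotype comparison in S-IECs asked how these genes stood in the ileum of mice labelled as lacking epithelial *Nfat5*. None of the 9 was called at an adjusted p under 0.05, where limma called 0.00789% of clusters (2 of 25341). At an unadjusted p under 0.05, *Slc2a5*, *Slc2a2* and *Khk* were above and *Slc2a1* was below *Nfat5fl/fl*, where 5.81% of all clusters were above and 8.23% below. *Slc2a5* and *Slc2a2* also passed a 1.5-fold limit, with 0.702% of clusters above and 1.96% below by that rule. The groups did not overlap for *Slc2a5* and *Khk*, both higher, as for 9.80% of clusters that were higher and 10.4% that were lower. Differences were positive for 8 of the 9 genes, and their median was 0.26, against 0.01 over all clusters.

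*Slc2a5* stood at 7.29 ± 0.12 (SD, n = 3) in *Nfat5fl/fl* S-IECs and 8.13 ± 0.17 (SD, n = 3) in *Nfat5IEC-KO* S-IECs. The log2 difference was 0.84 (standard error 0.13, 95% confidence interval 0.55 to 1.12), or 1.78-fold, with an unadjusted p of 0.000107 and an adjusted p of 0.112 in limma. It was called with all 12 arrays in one fit (adjusted p = 0.0218), with a variance trend and robust prior (0.0124) and after a filter on dim clusters (0.0410), and over 16 alternatives its adjusted p ran from 0.0124 to 0.384. The fructose transporter gene was the one among the 9 for which the call in this comparison turned on such choices. Leaving out single arrays kept its difference between 0.75 and 0.92.

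*Slc2a2* differed by 0.71 (standard error 0.27, 95% confidence interval 0.09 to 1.34, adjusted p = 0.294 from limma), from 8.46 ± 0.42 to 9.18 ± 0.52 (SD, n = 3 each). Without single arrays its difference ran from 0.48 (without *Nfat5fl/fl* replicate 3) to 0.996 (without *Nfat5IEC-KO* replicate 3, where *Slc2a5* differed by 0.92). *Khk* differed by 0.35 (standard error 0.12, 95% confidence interval 0.09 to 0.62, adjusted p = 0.231), or 1.28-fold. *Slc2a1* differed by -0.57 (standard error 0.20, 95% confidence interval -1.03 to -0.12, adjusted p = 0.254), or 1.49-fold toward lower values. Without *Nfat5IEC-KO* replicate 2 that difference was -0.78 (adjusted p = 0.0855), whereas the mean of both clusters of the gene gave -0.24 and its dimmer cluster alone 0.10. The transporter of fructose, the basolateral transporter and the first enzyme of fructolysis thus had positive differences and GLUT1 a negative one, none past the adjusted threshold.

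For the other 5 genes the intervals included 0. *Slc5a1* differed by 0.11 (95% confidence interval -0.18 to 0.40), *G6pc* by 0.30 (-0.11 to 0.70), *Fbp1* by 0.26 (-0.17 to 0.68), *Mlxipl* by 0.06 (-0.23 to 0.35) and *Txnip* by 0.14 (-0.18 to 0.47). The upper bounds for *Slc5a1* and *Mlxipl* were close to the difference of *Khk*, 0.35.

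**Figure D3:**
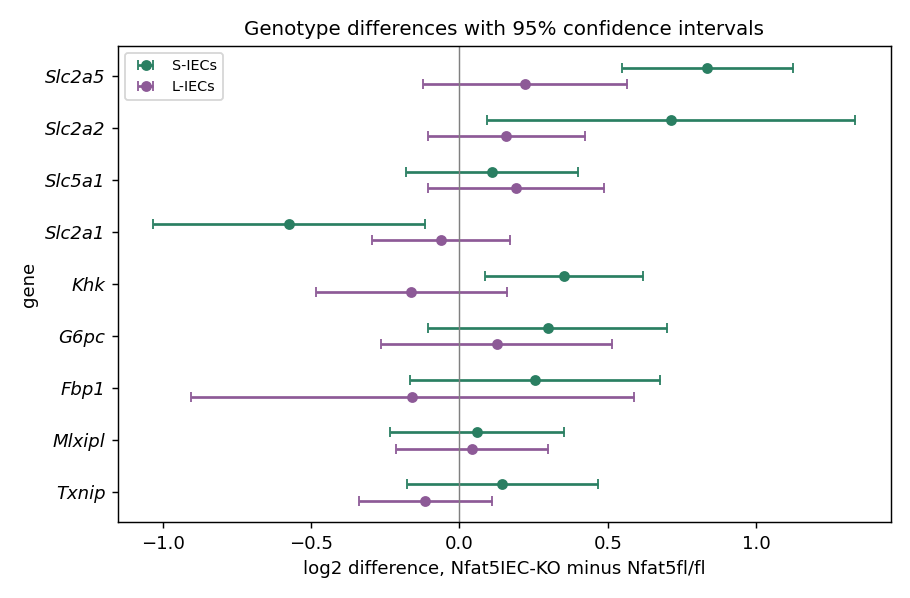
Log2 difference between *Nfat5IEC-KO* and *Nfat5fl/fl* (x axis) of each gene (y axis) in S-IECs and in L-IECs, with 95% confidence intervals from limma that are not adjusted for the number of clusters. In S-IECs the intervals of *Slc2a5*, *Slc2a2* and *Khk* lie above 0 and that of *Slc2a1* below it, and in L-IECs every interval includes 0.

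In L-IECs none of the 9 genes was called at an adjusted p under 0.05, where 0% of clusters were. None had an unadjusted p under 0.05 (6.32% of clusters), passed the limit of 1.5-fold as well (0.454%) or had groups without overlap (12.1%). The log2 differences were 0.22 for *Slc2a5* (95% confidence interval -0.12 to 0.56), 0.19 for *Slc5a1*, 0.16 for *Slc2a2*, 0.13 for *G6pc*, 0.04 for *Mlxipl*, -0.06 for *Slc2a1*, -0.11 for *Txnip*, and -0.16 for both *Khk* and *Fbp1*. The adjusted p from limma ran from 0.862 to 0.966. The interval of *Fbp1* was the widest, from -0.91 to 0.59, and without *Nfat5IEC-KO* replicate 2, the array at 3.0, its difference was 0.27.

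An interaction contrast on all 12 arrays compared the genotype difference in one tissue with that in the other, which reuses the arrays of both genotype comparisons. No gene of the 9 passed an adjusted p under 0.05, and 0% of all clusters did. At an unadjusted p under 0.05 there were 2 of the 9, *Slc2a5* and *Khk*, against 10.8% of all clusters. The genotype difference of *Slc2a5* was larger in S-IECs by 0.61 (95% confidence interval 0.18 to 1.05, unadjusted p = 0.00952, adjusted p = 0.305 in limma). That of *Khk* was larger by 0.52 (95% confidence interval 0.12 to 0.91, unadjusted p = 0.0154, adjusted p = 0.335). For *Slc2a2* the interaction was 0.56 (-0.16 to 1.27) and for *Slc2a1* -0.51 (-1.04 to 0.01).

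Other genes of carbohydrate handling were read from 6 lists, and *Pklr* stood on 2 of them. None of their members was called between the S-IEC genotypes at an adjusted p under 0.05. Of 18 other sugar transporters measured, 3 were above and 1 below at an unadjusted p under 0.05 with 1.5-fold (0.702% and 1.96% of all clusters), with a median difference of 0.15 against 0.01 over all clusters. *Slc5a11*, a sodium-coupled inositol transporter gene, had log2 values of 8.0, 7.73 and 7.69 in *Nfat5fl/fl* and 8.60, 8.5 and 8.49 in *Nfat5IEC-KO* S-IECs, without overlap. The difference was 0.72 (adjusted p = 0.122 from limma). *Slc5a4a*, of the SGLT family, differed by 0.86 (adjusted p = 0.130). *Slc5a4b*, a close paralog of it that was named after its values were seen, differed by 0.87, and probes of such paralogs may share signal. In L-IECs *Slc5a4a* differed by 0.44 and *Slc37a2*, which encodes an exchanger of sugar phosphates and phosphate, by -0.78 (adjusted p = 0.768 and 0.769). No list member was called in L-IECs, where the smallest p in the other lists were those of *Treh*, at -0.70, and *Sis* (0.27) of the disaccharidases, *Ldhb* (0.25) and *Pfkfb4* (0.20) of glycolysis, *Acly* (0.21) and *Fgf21* (0.18) of the ChREBP list, *Glyctk* (-0.21) and *Tkfc* (0.14), and *Pcx* (0.14) and *Pck1* (-0.11).

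All 4 disaccharidase genes, whose brush border enzymes release the sugars that these transporters take up, were above *Nfat5fl/fl* on every *Nfat5IEC-KO* S-IEC array. Of all clusters 9.80% were higher without overlap, and the median difference of the 4 genes was 0.42, against 0.01 over all clusters. The lactase gene *Lct* had 10.11, 9.23 and 9.26 in *Nfat5fl/fl* and 10.52, 11.02 and 10.35 in *Nfat5IEC-KO*, a difference of 1.10 (adjusted p = 0.137). The trehalase gene *Treh* differed by 0.59 there (adjusted p = 0.157 from limma) and by -0.70 in L-IECs (adjusted p = 0.668), where its 3 *Nfat5IEC-KO* arrays were all lower. The interaction of *Treh* was 1.28 (unadjusted p = 6.72e-05, adjusted p = 0.155).

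Downstream of *Khk*, 3 genes of the fructolysis and polyol list were measured. *Glyctk*, the glycerate kinase gene, differed by 0.39 in S-IECs without overlap (adjusted p = 0.168) and *Tkfc*, whose product phosphorylates the glyceraldehyde made from fructose, by 0.17 with overlap. *Sord* and *Akr1b3* of the polyol pathway were not analysed here. The 5 genes of gluconeogenesis had a median of -0.33, with *Pck2* at -0.49 (no overlap, adjusted p = 0.138) and *Pck1* at -1.12 (adjusted p = 0.224), the mitochondrial and cytosolic phosphoenolpyruvate carboxykinase genes. *Pck1* varied widely within *Nfat5fl/fl* S-IECs, at 9.08, 8.52 and 7.41, and the last of these lay below the highest *Nfat5IEC-KO* value of 7.49. *G6pc* and *Fbp1*, at 0.30 and 0.26, thus had the other sign from the *Pck* genes, each with an interval that included 0.

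Among 19 glycolysis genes the median was 0.12, with *Pfkfb4*, a regulator of phosphofructokinase activity, at 0.49 (adjusted p = 0.177) and *Hk2*, a hexokinase gene, at -0.52 (adjusted p = 0.256), both without overlap. The 15 ChREBP partners and targets had a median of -0.18, with 0 above and 2 below at an unadjusted p under 0.05 with 1.5-fold (1.96% of all clusters below). These were *Scd1*, a desaturase gene, at -0.71 (adjusted p = 0.173 from limma) and the fatty acid synthase gene *Fasn* at -0.62, the latter named after its value was seen. *Elovl6*, a fatty acid elongase gene, differed by -0.48 (adjusted p = 0.170) and did not reach 1.5-fold. All 3 had groups without overlap and are also driven by SREBP1. *Mlxipl* itself differed by 0.06 and its target *Txnip* by 0.14.

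**Figure D4:**
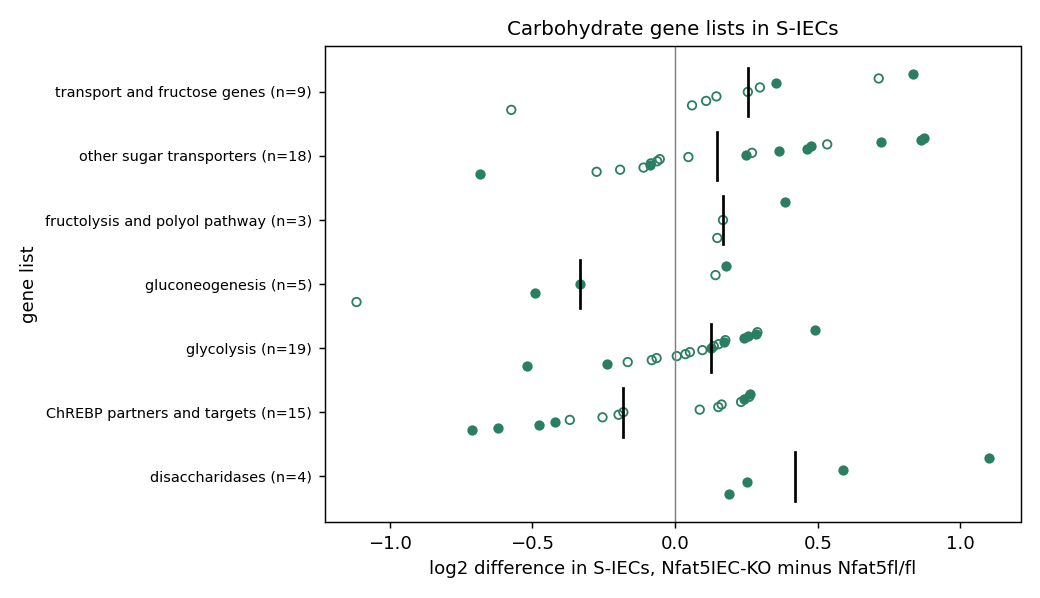
Log2 difference between *Nfat5IEC-KO* and *Nfat5fl/fl* S-IECs (x axis) for each gene of 7 lists (y axis), where filled points mark genes whose groups did not overlap, open points the others and black lines the list medians. The medians were 0.26 for the 9 genes described here, 0.42 for the disaccharidases, -0.33 for gluconeogenesis and -0.18 for ChREBP partners and targets, and no gene was called at an adjusted p under 0.05.

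Between the tissues of *Nfat5fl/fl* mice, limma called 7.20% of all clusters higher in S-IECs and 10.4% lower. Of the 18 other sugar transporters, 6 were called higher and 5 lower there. Those with the smallest p were *Slc5a11* (3.28) and *Slc5a4a* (2.35), both higher, and *Slc37a2* (-4.05) and *Slc50a1*, a SWEET family transporter gene (-1.37), both lower. All 4 disaccharidase genes were called higher, *Sis* by 5.48, *Treh* by 3.79, *Mgam* by 2.14 and *Lct* by a measured 5.40. *Lct* and *Slc5a4a* lay below the array median on all 3 *Nfat5fl/fl* L-IEC arrays and *Slc5a11* on 1, so that their differences are also read as lower bounds. In fructolysis *Tkfc* (2.95) and *Glyctk* (0.56) were called higher and *Aldh2* (-1.66) lower. Glycolysis was divided, with 5 of 19 genes higher and 8 lower, among them the hexokinase genes *Hkdc1* (1.81), *Hk1* (-2.36) and *Hk2* (-2.01) and the phosphofructokinase gene *Pfkl* (-1.88). Of the ChREBP partners and targets 2 of 15 were higher (*Gpd1* 1.91 and *Pklr* 1.10) and 7 lower, with *Acly* at -1.47 and *Arrdc4*, an arrestin gene related to *Txnip*, at -1.22. Of the 5 gluconeogenesis genes *Fbp2* was higher (0.92) and *Pcx* (-0.83) and *G6pc3* (-0.58) lower. The mirrored tissue order of *Mlxipl* and *Txnip* was thus also that of *Mlxipl* and *Arrdc4*. In *Nfat5IEC-KO* mice, where 10.0% of all clusters were called higher and 14.7% lower, 7 other sugar transporters were higher and 5 lower. All 4 disaccharidase genes were higher there as well.

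Markers of position and cell type moved along with the S-IEC genotypes. All 14 villus enterocyte genes had positive differences, 9 of them without overlap, where 9.80% of all clusters were higher without overlap, and the mean level of that list was 10.45 to 10.62 in *Nfat5fl/fl* and 10.84 to 10.91 in *Nfat5IEC-KO* S-IECs. All 3 genes of the proximal small intestine had positive differences, with list levels of 5.40 to 5.71 and 5.78 to 6.22. Only 1 of these 3, *Adh6a*, had groups without overlap. All 4 ileal genes had negative differences, with list levels of 10.55 to 10.64 and 10.12 to 10.43. Of these 4, 2 were lower without overlap, as were 10.4% of all clusters. The 9 crypt genes were all lower in mean, 6 of them at an unadjusted p under 0.05 with 1.5-fold (1.96% of all clusters), with list levels of 7.03 to 7.53 in *Nfat5fl/fl* and of 6.39, 7.08 and 6.43 in *Nfat5IEC-KO*. All 6 Paneth cell genes were lower by the same rule, with list levels of 10.22 to 10.57 and of 9.03, 10.03 and 8.99. The second *Nfat5IEC-KO* array was the nearest to *Nfat5fl/fl* in crypt and Paneth cell lists. It was the highest of its group in *Slc2a1* (6.14), toward *Nfat5fl/fl*, and in *Slc2a2* (9.63), away from *Nfat5fl/fl*. It was also the highest in *Slc5a1*, *Khk*, *Fbp1* and *Mlxipl*, but not in *Slc2a5* or *G6pc*, and the lowest in *Txnip*. Without this array *Slc2a5* differed by 0.84 (adjusted p = 0.0541 from limma). The 7 goblet cell genes all had negative differences, with list levels of 11.02 to 11.26 and 10.30 to 11.08. Colonocyte list levels were 6.36 to 6.96 in *Nfat5fl/fl* and 6.26 to 6.35 in *Nfat5IEC-KO* S-IECs, with 2 of 8 differences positive. Without overlap 1 of the 8 was higher and 2 were lower (9.80% and 10.4% of all clusters). The list levels are means that include *Car1*, a colon carbonic anhydrase gene with group means of 7.55 and 4.49. Their gap therefore does not describe the list as a whole. *Car1*, named after its values were seen, had 4.32, 9.75 and 8.59 in *Nfat5fl/fl* S-IECs and 3.65 to 4.97 in *Nfat5IEC-KO* S-IECs. *Nfat5fl/fl* replicates 2 and 3 thus stood apart in *Car1*. The rest of the list was divided over *Nfat5fl/fl* replicates 1, 2 and 3. *Slc26a3* had 9.5, 9.3 and 9.3, *Ly6g* 4.11, 3.29 and 3.81 and *Hoxd13* 3.89, 3.31 and 3.67. These were lower on replicates 2 and 3. *Aqp8* had 3.53, 4.11 and 4.59 and *Mettl7b* 7.52, 7.73 and 7.66, higher there. *Car4* (7.37, 7.39 and 7.42) and *Ceacam20* (10.67, 10.71 and 10.70) changed little. *Slc2a1*, higher in colon, had 6.06, 6.52 and 6.34 on the same arrays. Its genotype difference was -0.47 without replicate 2, -0.56 without replicate 3 and -0.70 without replicate 1. The 7 leukocyte genes had list levels of 5.32 to 5.84 and 5.46 to 5.67 and the 8 stromal and endothelial genes 4.88 to 4.96 and 4.83 to 5.01, so that both overlapped. The part of these lists in the differences of *Slc2a5*, *Slc2a2*, *Khk* and *Slc2a1* was not tested.

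**Figure D5:**
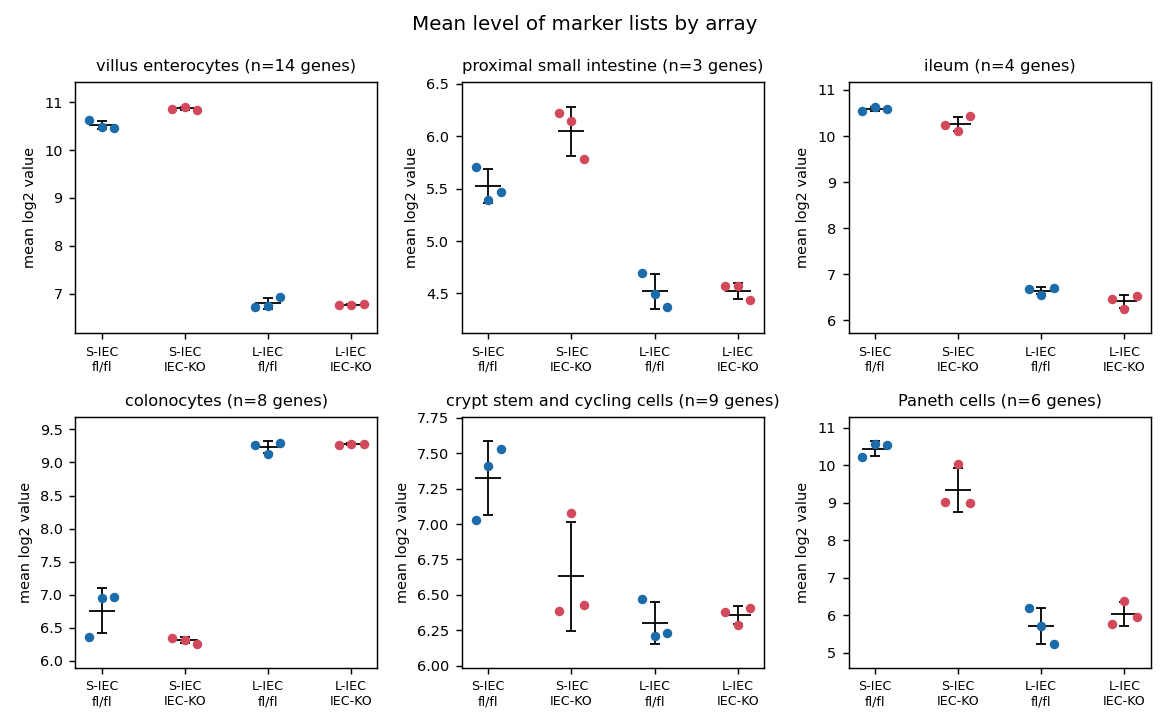
Mean log2 value (y axis) of 6 marker lists on each array by tissue and genotype (x axis), where points are arrays and the line and bars give the mean and SD of 3 arrays. Villus enterocyte and proximal lists lie higher in *Nfat5IEC-KO* than in *Nfat5fl/fl* S-IECs, the ileum list lies lower, and the second *Nfat5IEC-KO* S-IEC array stands above the other two in the crypt and Paneth cell lists.

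Markers followed the tissue labels. Villus enterocyte genes (14 of 14) and ileal genes (4 of 4) were called higher in S-IECs of *Nfat5fl/fl* mice, as were 7.20% of all clusters. Of the 8 colonocyte genes, 7 were called higher in L-IECs (10.4% of all clusters), where the list stood at 9.13 to 9.30.

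The variation of the 9 genes within a tissue was compared over the 12 arrays after subtraction of each tissue's mean, as a description that mixes the genotype difference with that between mice of one genotype. *Slc2a5* went with *Slc2a2* (Pearson r = 0.68) and *Khk* (0.67) and against *Slc2a1* (-0.60), and *Slc2a2* went with *Slc5a1* (0.62). *Slc5a1* and *Txnip* had r = -0.53. The clusters of other genes most like *Slc2a5* were *Bmp2* (r = 0.95), *Slc25a5* (0.94) and *B2m* (0.94). *Bmp2*, which encodes a bone morphogenetic protein, had 7.02, 7.06 and 7.01 in *Nfat5fl/fl* and 7.88, 7.93 and 7.55 in *Nfat5IEC-KO* S-IECs, a difference of 0.75 (adjusted p = 0.130 from limma). For *Slc2a2* they were *Adh6a* (0.91), which is on the list of the proximal small intestine, *Nkx6-2* (0.91) and *Defb25* (0.89). For *Slc2a1* they were *Imp4* (0.97), a ribosome assembly gene, *Ccl6* (0.97) and *Tmem63a* (0.97), and for *Khk* they were *Snx16* (0.92), *Tbx6* (0.91) and the cytochrome P450 gene *Cyp3a13* (0.90). The nearest clusters to the others were *Apol10a*, *Lzts3* and *Ralyl* for *Slc5a1*, *Dppa5a*, *Irf1* and *Bst1* for *G6pc*, *Slc32a1*, *Bag4* and *Lexm* for *Fbp1*, *Syne1*, *Ccdc77* and *Cyp2c53-ps* for *Mlxipl*, and *Mmp11*, *Drd5* and *Vwa1* for *Txnip*, all with r of 0.87 to 0.95. Such a rank picks the highest r among all clusters of other genes.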

How the data were processed

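Biotin-labelled cDNA from total RNA of 12 samples, 3 per tissue and genotype, was hybridised to Affymetrix mouse arrays. The deposited values were log2 summaries per transcript cluster, which the authors made with Transcriptome Analysis Console on mm10. Its version and the normalization are not stated in the material read here. The deposited values were taken unchanged, and no scan date was at hand to test for batches. Precision is limited by the number of arrays.

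Groups came from the sample labels. Clusters with a gene symbol (25341, of which 1820 carry several) were fitted with lmFit and eBayes of limma (version 3.58.1, R 4.3.3), with p-values adjusted by Benjamini-Hochberg over all of them. Each comparison used its own 6 arrays and the interaction all 12. The script was tested on simulated data. The study's text in hand names no array model, and its plain t-test was run as an alternative. A second rule combined an unadjusted p under 0.05 and a difference of 1.5-fold or more. Entrez identifiers of all 9 genes matched RefSeq's GRCm38.p6, which gave coordinates, and promoters were searched in Python 3.11.15.

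All 9 genes are named. From each list of other genes, up to 4 members called at an adjusted p under 0.05 are named, or otherwise the 2 with the smallest p, and for each of the 9 genes the 3 most similar clusters of 1 other symbol (no predicted genes or small RNAs). *Slc5a4b*, *Fasn* and *Car1* lie outside the rule and were picked with their values known. The rest of the colonocyte list is named beside *Car1* with its *Nfat5fl/fl* S-IEC values. The 9 genes and the lists were chosen with earlier results of these data known.

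The alternatives changed the arrays fitted (all 12 together), the model (replicate number as a block, a variance trend with a robust prior, array weights, the t-test), the values (quantile normalization, centring on the array median), the clusters (only bright ones, the whole table, the mean over a symbol's clusters) or left out single arrays.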

Additional observations from a re-analysis of the deposited data

How the results depend on the processing

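Over 16 alternatives for each gene and comparison (20 for the interaction), all 9 tissue differences in *Nfat5fl/fl* mice kept their call and direction. In *Nfat5IEC-KO* mice *Fbp1* (2.24) and *Txnip* (-0.69) lost theirs by the methods' t-test. *Slc2a5* passed between the S-IEC genotypes with all 12 arrays in one fit, with a variance trend and robust prior and with the filter on dim clusters, so that 1 gene of the 9 was called in each instead of 0. Clusters called at an adjusted p there numbered 2, and 571, 480 and 43 in those settings, 5 over every cluster of the table and 0 by the methods' t-test. Leaving out 1 array gave 2 to 226. By the rule of unadjusted p and fold, 674 clusters and 2 of the 9 genes were called. Over every cluster of the table these were 1353 and 1, by the methods' t-test 1 gene, and without 1 array 575 to 1157 clusters and 1 to 3 genes. In L-IECs 0 clusters became 13 with trend and robust and 0 to 1 without 1 array, and 115 by the second rule became 42 with the filter, 611 over every cluster, 64 by the methods' t-test and 165 to 214 without 1 array. For the interaction 0 became 84, 2 and 1 with trend and robust, the filter and every cluster, and 0 to 239 without 1 array. By the second rule 975 clusters became 1781 over every cluster and 876 to 1512 without 1 array, and 0 to 2 of the 9 genes were called. The arrays behind the highest counts were *Nfat5IEC-KO* replicate 2 of S-IECs (226, 1157, 239 and 1512) and *Nfat5fl/fl* replicate 3 of L-IECs (214). The causes were not tested.

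Directions turned only on leaving out an array, in differences whose intervals included 0. Without 1 array the genotype difference of *Mlxipl* ran from -0.053 to 0.13 in S-IECs and from -0.042 to 0.12 in L-IECs, and that of *Fbp1* in L-IECs from -0.48 to 0.27. The interactions ran from -0.095 to 0.10 for *Mlxipl*, -0.0195 to 0.35 for *G6pc*, -0.19 to 0.025 for *Slc5a1* and -0.0188 to 0.74 for *Fbp1*.

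Same-numbered samples correlated at most at 0.10 in their deviations from the group means, so the numbers were not taken to pair the samples. With the replicate block the difference of *Slc2a5* in S-IECs was 0.84 (adjusted p = 0.123 from limma), 2 clusters were called there, and no call among the 9 genes changed. The filter on dim clusters left *Slc2a2*, *G6pc* and *Fbp1* out of the L-IEC genotype comparison.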
